A study of Mus musculus with 12 samples.

Results

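Metallothioneins are small cysteine-rich proteins that hold zinc and copper, and Mt1 and Mt2 are the forms that most mouse tissues share. The 3 genes described here are Mt1, Mt2 and Mtf1, which encodes the zinc-sensing transcription factor MTF1 that switches the metallothionein genes on. They were matched by symbol among 16426 named genes of a mouse gene array, of which 8918 were bright enough to test, and all 3 passed that filter. They were chosen with their values on these arrays known, so their levels and differences are given as descriptions without p-values, while other genes carry the test of a fit across all tested genes.

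The arrays measured RNA from spleen CD4 T cells of 6-week-old male C57Bl/6 mice in 6 groups of 2 arrays. In 3 groups the cells were regulatory T cells (Tregs, the cells that restrain immune responses under the transcription factor Foxp3), sorted as CD25-high from mice of genotype Foxp3(WT/WT), Foxp3(M354/M354) or Foxp3(M176/M176). In the other 3 groups, Tcons (conventional T cells) of WT genotype were transduced in vitro with a retrovirus carrying WT, M354 or M176 Foxp3 and sorted as Thy1.1-high. M354 and M176 are the labels' names for mutant forms of Foxp3. The series text calls the mice treated without naming the treatment. Each transduced group received a Foxp3 virus, so no group used here shows transduced cells without added Foxp3, and these cells also carry their own WT Foxp3 gene, which the Foxp3 probe set cannot tell from the viral copy. The labels leave unsaid if a group's 2 arrays used different mice or cultures, and the p-values measure only the spread between these arrays, which may be technical.

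Array medians lay between 101.5 and 117.4, and the small number of arrays limits the precision of every value. Foxp3 intensity was 5620 ± 414 (SD, n = 2) in WT Tregs, 5738 ± 358 in M354 Tregs and 3381 ± 85.5 in M176 Tregs, and the group means in transduced cells lay between 5448 and 6054. The T cell identity genes were above the filter in 10 of 10 cases. B cell markers were above it in 11 of 12 cases, CD8 T and NK cell markers in 5 of 7, myeloid markers in 2 of 9, dendritic cell markers in 2 of 7 and erythroid markers in 1 of 2. The summed intensity of the 11 B cell markers was 2279.4 on replicate 1 of WT Tregs and 4530.4 on replicate 2, against 1998.7 to 2443.9 on the mutant Treg arrays and 4040.1 to 4493.8 on the transduced arrays. None of these markers read 0, and Cd79a, a part of the B cell receptor, read 93.84 to 398.6 on Treg arrays and 296.9 to 390.1 on transduced arrays. The 5 CD8 T and NK cell markers summed to 1530.4 to 3147.3 on Treg arrays, highest with M354, and to 4007.7 to 4946.4 on transduced arrays. In M354 against WT Tregs 1 of the 5 was called higher by limma, beside 1.81% of all genes called, and their median difference was -0.105. Their mean log2 intensity overlapped, at 7.49 to 7.65 with M354 and 7.46 to 7.54 with WT. Small nucleolar RNA genes, 36 in number, had a mean log2 intensity of 9.98 to 10.04 on M176 Treg arrays and 8.66 to 8.87 on the other Treg arrays. They also set transduced arrays of 1 group apart, with 8.61 and 9.18 for WT, 9.64 and 8.75 for M354 and 8.86 and 9.46 for M176 (replicates 1 and 2).

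When zinc rises in the cell, MTF1 binds zinc through its zinc fingers, moves to the nucleus and binds metal response elements, short motifs close to the start of the metallothionein genes. Metallothionein protein then takes up the surplus metal. Glucocorticoids, cytokines acting through STAT3 and oxidative stress are also known to raise metallothionein RNA, and activated T cells are known to express it. Mtf1 RNA itself is generally made at a steady level, since MTF1 is controlled mainly as a protein.

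The annotated start regions of Mt1 and Mt2 are shown because MTF1 is known to bind near the start of these genes. Both genes were also lower in the same transduced groups. Each window holds 300 bases of RefSeq sequence in build GRCm38.p6, from 250 bases before the annotated start, and the capitals mark matches to the metal response element core TGCACNC or TGCGCNC on either strand. The Mt1 window is chr8:94178839-94179138 on the plus strand and the Mt2 window is chr8:94172368-94172667, also on the plus strand.
Mt1: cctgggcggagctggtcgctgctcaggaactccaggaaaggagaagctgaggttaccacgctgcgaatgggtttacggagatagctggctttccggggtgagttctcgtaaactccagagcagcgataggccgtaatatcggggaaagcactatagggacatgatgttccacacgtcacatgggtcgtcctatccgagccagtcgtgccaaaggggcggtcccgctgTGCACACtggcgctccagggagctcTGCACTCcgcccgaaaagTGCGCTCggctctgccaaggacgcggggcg
Mt2: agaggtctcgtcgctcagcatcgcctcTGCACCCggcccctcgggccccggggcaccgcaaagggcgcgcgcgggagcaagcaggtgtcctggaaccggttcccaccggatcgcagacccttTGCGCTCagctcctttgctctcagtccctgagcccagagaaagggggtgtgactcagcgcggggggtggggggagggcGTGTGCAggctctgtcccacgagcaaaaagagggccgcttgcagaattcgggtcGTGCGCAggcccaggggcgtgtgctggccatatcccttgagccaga
The Mt1 window held 3 matches and the Mt2 window 4. In the Mt1 window they began 23 bases before the annotated start and 2 and 20 bases after it. In the Mt2 window they began at -223, -128, -50 and 4, with the annotated start counted as 0. Of 21263 windows of protein-coding genes of the same length, 29.3% held at least 1 match, 1.59% at least 3 and 0.353% at least 4. Overlapping matches were counted once. The Mt2 window also held 1 match to the antioxidant response element core TGACNNNGC, on either strand, which 13.0% of the windows held, and it overlapped none of the metal response matches. The windows of Mt3 and Mt4 held 1 metal response match each and that of Mtf1 none. These matches are letters in a window, and no binding was measured here. The annotated starts were not checked against measured RNA starts, so the true distances may differ. Matches outside the windows were not counted.

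Mt2 was the more variable of the 2 metallothioneins. In transduced cells its intensity was 2456 and 2514 with WT Foxp3, 1087 and 805.8 with M354, and 916.9 and 851.4 with M176. Both WT arrays stood far above all 4 mutant arrays, and the 2 mutants overlapped each other. The group means were 2485 ± 40.9 (SD, n = 2), 946.1 ± 199 and 884.2 ± 46.3. On the log2 scale the difference from WT was -1.41 for M354 and -1.49 for M176 (SE 0.27 for each), a level 2.66-fold and 2.81-fold lower. The SE comes from all 12 arrays and so takes in the wider spread of Mt2 between Treg arrays. In such sorted populations, fewer cells with the RNA and less RNA per cell cannot be told apart. The summed B cell markers were also slightly higher on the WT arrays (4463.4 to 4493.8) than with M354 (4152.3 to 4280.2) or M176 (4040.1 to 4351.1), and their part in the difference was not tested. The CD8 T and NK cell markers summed to 4007.7 to 4673.1 with WT, 4925.5 to 4946.4 with M354 and 4306.6 to 4935.4 with M176. Without the array of higher small nucleolar RNA level in each transduced group, which leaves 1 array a group, the Mt2 differences were -1.61 and -1.42.

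Mt1 had the same order at a smaller size. Its intensity was 682.6 and 677.3 with WT Foxp3, 465.5 and 411.8 with M354, and 459.7 and 404.6 with M176. Again each WT array stood above all 4 mutant arrays and the mutants overlapped each other. The difference from WT was -0.635 for M354 and -0.657 for M176 (SE 0.126), or 1.55-fold and 1.58-fold lower. Without the 3 arrays of higher small nucleolar RNA level they were -0.729 and -0.57. Both metallothioneins were thus lower without overlap in each comparison. Of all tested genes, 17.1% were lower without overlap with M354 and 16.0% with M176. These comparisons share the WT arrays, so they are 2 readings against 1 set of controls.

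Placed among all tested genes, the Mt2 difference was the 8th widest fall from WT with M354 and also the 8th with M176, a position that 0.0897% of the 8918 genes reached or passed. Mt1 was 82nd with M354 and 53rd with M176. Across all tested genes the median difference was 0.012 with M354 and -0.009 with M176. The genes with wider differences than Mt2 in both comparisons were Ak4, Ndrg1, Ciart, Bnip3, Egln3 and Vegfa, which were picked by rank after their values were seen. Ak4 is a mitochondrial adenylate kinase, Bnip3 a receptor for the removal of mitochondria, Egln3 a prolyl hydroxylase and Vegfa a growth factor for blood vessels. Ak4 led both lists at -2.28 and -2.27.

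**Figure D1:**
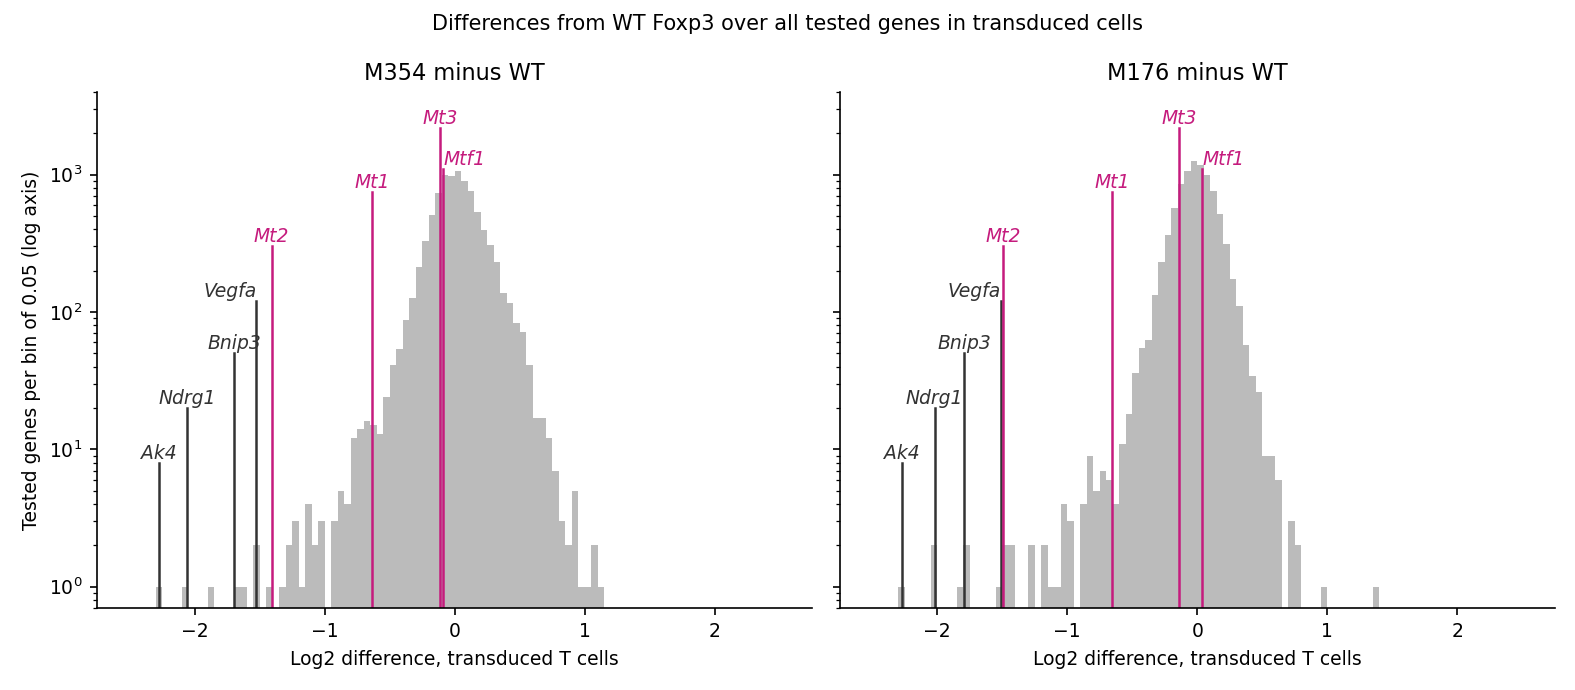
Histograms of the log2 difference from WT Foxp3 over the 8918 tested genes in transduced T cells, for M354 (left) and M176 (right), with the number of genes per bin of 0.05 on a log axis. Vertical lines mark the position of named genes and their heights carry no meaning. Mt2 lies at -1.41 and -1.49 in the sparse left tail, Mt1 at -0.635 and -0.657 at its edge, and Mt3 and Mtf1 lie in the bulk of the genes.

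M354 and M176 themselves gave similar metallothionein levels in transduced cells. The M354 value minus the M176 value was 0.022 (SE 0.126) for Mt1 and 0.083 (SE 0.273) for Mt2, each smaller than its SE. That does not show that the mutants act alike, and without the 3 arrays of higher small nucleolar RNA level the values were -0.159 and -0.186. Over all genes, 0.0785% were called between the 2 mutants.

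In Tregs Mt1 and Mt2 were dim. Mt2 intensity was 100.3 and 222.9 in WT Tregs, 158.3 and 130.8 in M354 Tregs, and 135.5 and 85.03 in M176 Tregs. The WT arrays lay far apart and enclosed all of the M354 values, and both mutants overlapped WT. Mt2 was above the median of its own array on 10 of 12 arrays, so part of the Treg values sit near the dim end of the tested genes. The difference from WT was -0.055 for M354 and -0.478 for M176 (SE 0.273).

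These Mt2 differences turned on single arrays. Without replicate 1 of WT Tregs the M354 difference was -0.631, and without replicate 2 it was 0.521. For M176 the values were -1.05 without replicate 1 of WT Tregs, 0.098 without replicate 2, -0.814 without replicate 1 of M176 Tregs and -0.142 without replicate 2. Replicate 2 of WT Tregs, the array with the high Mt2 value, was also the Treg array with the high B cell marker sum of 4530.4. The part of that signal in the Mt2 value was not tested.

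Mt1 was tighter. It read 150.3 and 154.3 in WT Tregs, 157.4 and 168.4 in M354 Tregs, and 127.1 and 133.1 in M176 Tregs. The 3 groups did not overlap, with M354 highest and M176 lowest. The difference from WT was 0.096 for M354 and -0.228 for M176 (SE 0.126), and M354 minus M176 was 0.324. Of all tested genes, 13.1% were higher than WT without overlap in M354 Tregs, 37.3% were lower than WT without overlap in M176 Tregs and 32.3% were higher without overlap in M354 than in M176 Tregs. In M176 Tregs the small nucleolar RNA genes were also higher than in other Tregs, as given above, and their part in the Mt1 value was not tested.

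**Figure D2:**
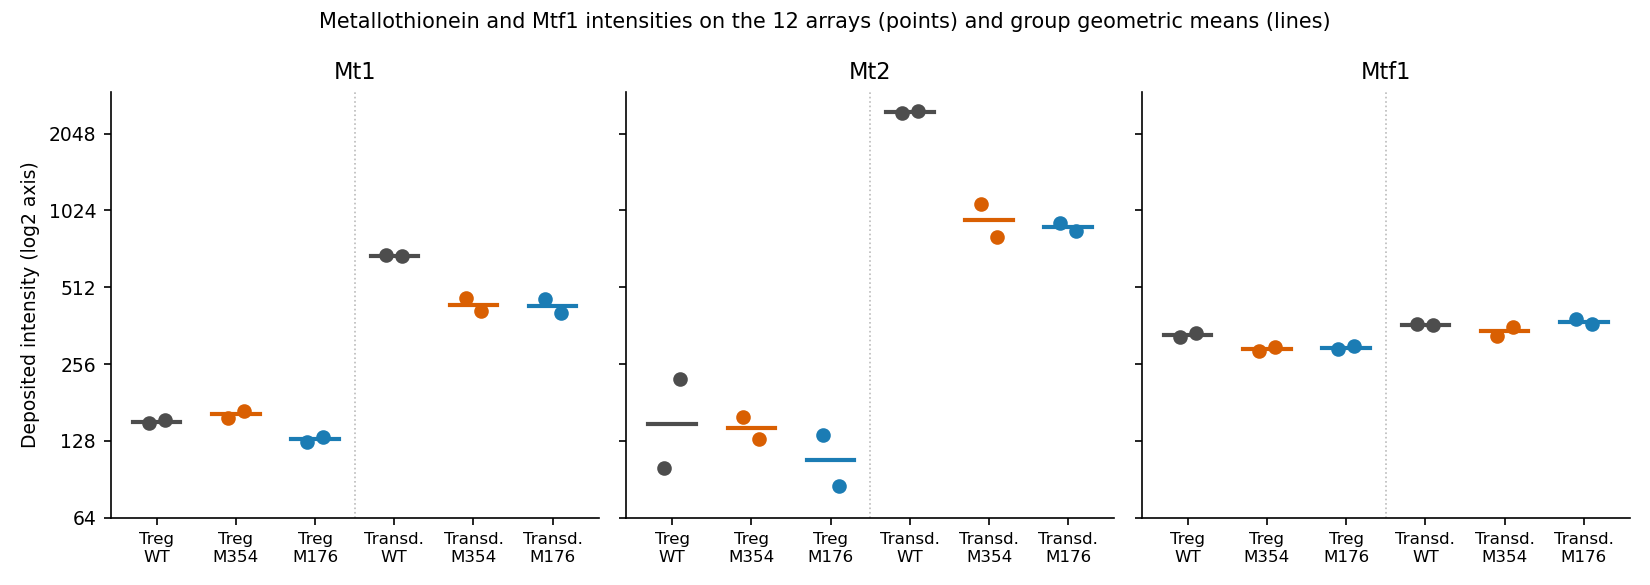
Deposited intensity (log2 axis) of Mt1, Mt2 and Mtf1 on each of the 12 arrays (points), by group, with the geometric mean of the 2 arrays of a group as a line. Mt1 and Mt2 are highest in cells transduced with WT Foxp3, at about 680.0 and 2485, and lie lower with both mutants, while the 12 Mtf1 values stay between 289.2 and 384.2.

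The widest contrast was between the systems. Mt2 was 16.6-fold higher in WT-transduced cells than in WT Tregs, a log2 difference of -4.06 for Tregs minus transduced cells (SE 0.27) and the 5th widest in its direction. That value was -3.48 without replicate 1 of WT Tregs and -4.63 without replicate 2. Mt1 was 4.46-fold higher, a difference of -2.16 (SE 0.13) and the 50th widest. All 6 transduced arrays exceeded all 6 Treg arrays for each of the 2 genes. For the WT groups alone, 39.1% of all tested genes were lower without overlap in WT Tregs than in WT-transduced cells. The share of genes that separate all 6 transduced arrays from all 6 Treg arrays was not counted.

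With the mutants the gap was narrower. The level of Mt2 in transduced cells over Tregs was 6.50-fold with M354 and 8.23-fold with M176, and that of Mt1 was 2.69-fold and 3.32-fold. Tregs were taken from mutant or WT mice while the transduced cells were Tcons held in vitro, so cell type, culture, virus and the Foxp3 allele cannot be told apart in these ratios. The B cell marker sum was also higher in transduced cells than on 5 of the 6 Treg arrays, and the CD8 T and NK cell sum was higher on all 6 transduced arrays than on any Treg array. Of those 5 markers, 4 were lower in WT Tregs than in WT-transduced cells by limma, where 30.2% of all genes were called, and Cd8a, a chain of the CD8 co-receptor, read 106.4 and 82.06 against 448.5 and 370.8. Ly6g, a neutrophil marker, and Ccl22, a chemokine of dendritic cells, were higher on every transduced array too. Cybb, the other of the 2 tested myeloid markers, went the other way and was called higher in WT Tregs by limma. These 2 myeloid markers summed to 304.9 to 505.72 on Treg arrays and 396.62 to 544.2 on transduced arrays, ranges that overlap. The part of these signals in the ratios was not tested.

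The effect of each allele could be set between the systems. For Mt1 the M354 effect in Tregs minus that in transduced cells was 0.731 and the M176 effect 0.429 (SE 0.179). For Mt2 these differences were 1.35 and 1.01 (SE 0.39). Over all tested genes, 1.08% were called for a different M354 effect in the 2 systems and 5.49% for a different M176 effect. With M354, both Mt1 arrays were above WT in Tregs, by less than the SE, and below WT in transduced cells. Of all tested genes, 13.1% were higher without overlap in M354 Tregs and 17.1% were lower without overlap in M354-transduced cells. For Mt2 the M354 value was 0.778 without replicate 1 of WT Tregs and 1.93 without replicate 2, and the M176 value lay between 0.437 and 1.59 when single arrays were left out.

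In order of level, Mt2 ran from WT-transduced cells through M354 and M176 transduced cells to WT, M354 and M176 Tregs. The 2 mutant transduced groups could not be ordered and neither could the 3 Treg groups. Mt1 gave the same order for the transduced groups and then M354, WT and M176 Tregs. Across the 12 arrays Mt2 ranged over 4.89 log2 units and Mt1 over 2.43, wider than 99.9% and 97.6% of the tested genes. Pearson's r between Mt1 and Mt2 was 0.983 over 12 arrays, 0.991 over the 6 transduced arrays and 0.389 over the 6 Treg arrays. The arrays share groups and a normalisation, so these are descriptions.

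Mtf1, the gene of the activator, varied little. In transduced cells it read 367.2 and 363.7 with WT, 331.1 and 356.2 with M354, and 384.2 and 366.5 with M176. The M354 arrays lay just below WT and the M176 arrays overlapped it. The differences from WT were -0.09 and 0.038 (SE 0.119). The interval of 1 SE around each took in 0.

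In Tregs Mtf1 read 327.5 and 337.4 with WT, 289.2 and 297.6 with M354, and 292.2 and 300.1 with M176. Both mutant groups lay below WT without overlap, as 24.6% of tested genes did for M354 and 37.3% for M176, and they overlapped each other. The differences were -0.18 and -0.167 (SE 0.119). Between WT Tregs and WT-transduced cells the difference was -0.137, and it turned to 0.028 with quantile and 0.017 with cyclic loess normalisation. The whole Mtf1 range over 12 arrays was 0.41 log2 units, and only 7.7% of tested genes had a smaller range. With Mt1 and Mt2, Mtf1 had r of 0.833 and 0.821 over 12 arrays, but 0.135 and 0.073 within the 6 transduced arrays.

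**Figure D3:**
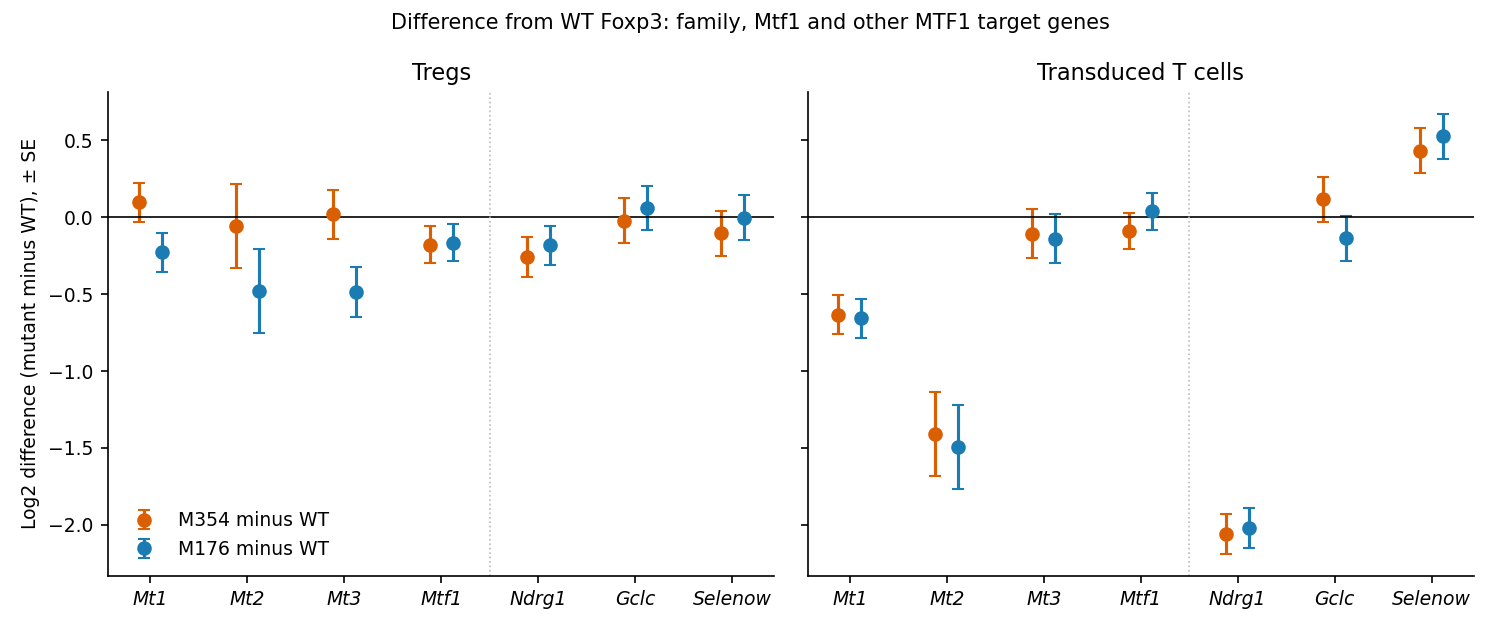
Log2 difference from WT Foxp3 (points) with its SE (bars) for M354 and M176, in Tregs (left) and transduced T cells (right), for Mt1, Mt2, Mt3, Mtf1 and 3 other genes known as MTF1 targets. In transduced cells Mt1, Mt2 and Ndrg1 lie well below 0, at -2.06 and -2.02 for Ndrg1, while Mt3, Mtf1 and Gclc lie near it. Selenow lies above 0 there with both mutants.

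The array also held the other 2 genes of the family. Mt3, which is best known from brain, read 248.4 and 316.2 with WT, 286.4 and 235.6 with M354, and 266.9 and 242.3 with M176 in transduced cells, so that the groups overlapped. Its differences were -0.109 (limma, Benjamini-Hochberg adjusted p = 0.904) and -0.14 (adjusted p = 1). In Tregs Mt3 read 406.4 and 334.9 with WT, 412 and 338.3 with M354, and 248.7 and 278.9 with M176. It fell by 0.486 in M176 Tregs (SE 0.16, limma adjusted p = 0.035), a comparison in which 24.7% of all genes were called. That call was lost without replicate 1 of M176 Tregs (limma adjusted p = 0.229), without replicate 2 (0.065) and without replicate 1 of WT Tregs (0.247). Between WT Tregs and WT-transduced cells Mt3 differed by 0.397 (limma adjusted p = 0.0705), the opposite sign to Mt1 and Mt2, and this passed the threshold with quantile (0.56, adjusted p = 0.0316) and cyclic loess normalisation (0.546, adjusted p = 0.0413). Mt4, known from stratified epithelium, was above its array's median on 0 of 12 arrays, with group means of 62.09 to 83.12, and was not tested.

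Genes next to the cluster were read in the same way. In the RefSeq order of chromosome 8 the genes run Nudt21, Ogfod1, Bbs2, Mt4, Mt3, Mt2, Mt1, Nup93, Slc12a3, Herpud1, Nlrc5 and Cpne2, and 12 neighbours, Mt3 among them, were tested. None was called in transduced cells with M354 or with M176 by limma, while 3 and 1 had an unadjusted p below 0.05, against 11.4% and 5.91% of all genes. Over all genes 1.33% and 0.516% were called in these comparisons. Nup93, a nuclear pore gene that follows Mt1, was -0.47 between WT Tregs and WT-transduced cells (limma adjusted p = 0.0225), against -2.16 for Mt1, and Nudt21, an RNA processing gene, was -0.411 (adjusted p = 0.0313). Both calls were lost with quantile and cyclic loess normalisation. These were 2 of the 12 neighbours, where 30.2% of all genes were called. In M176 Tregs 2 neighbours rose and 4 fell, Mt3 among the latter, beside 24.7% of all genes called, and Nudt21 rose by 0.888 (limma adjusted p = 2.3e-04). The calls of Mt3, Bbs2 and Herpud1 there were lost when single arrays were left out.

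Among other genes known as MTF1 targets 3 were tested, and the exporter gene Slc30a1 and the importer gene Slc39a10 were not analysed here. Ndrg1, a stress-responsive gene of cell differentiation, fell with both mutants in transduced cells. It read 1772 and 1917 with WT, 419 and 467.2 with M354, and 474.6 and 434.4 with M176, with no overlap. The differences were -2.06 (SE 0.13, limma adjusted p = 5.51e-08) and -2.02 (adjusted p = 7.37e-08). With Ak4, Ciart, Bnip3, Egln3 and Vegfa, Ndrg1 was among the widest falls given above. Whether MTF1 had a part in the fall of Ndrg1 was not tested. In Tregs Ndrg1 read 355.9 to 407.8 with WT and 310.3 to 340.4 with the mutants, with adjusted p of 0.474 and 0.312 by limma. Its WT Treg mean of 381.9 was also below the WT-transduced mean of 1844 (-2.27, limma adjusted p = 8.3e-10). Selenow went the other way, higher in WT Tregs by 0.418 (limma adjusted p = 0.0391), a call lost when single arrays were left out.

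Gclc and Selenow were not called in transduced cells. Gclc, an enzyme of glutathione synthesis, differed by 0.115 (limma adjusted p = 0.877) and -0.138 (adjusted p = 1) in transduced cells. Selenow, a small selenoprotein, differed by 0.432 (adjusted p = 0.201) and 0.524 (adjusted p = 0.247) by limma. So of the 3 tested targets, 1 fell with each mutant in transduced cells and 0 rose, beside 1.33% and 0.516% of all genes called. At an unadjusted p below 0.05 there were 2 with each mutant, Ndrg1 lower and Selenow higher. In Tregs none was called with either mutant by limma, beside 1.81% and 24.7% of all genes, and 0 had an unadjusted p below 0.05.

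Zinc reaches MTF1 through transporters. The Slc30a genes move zinc out of the cytosol and the Slc39a genes move it in. Of 16 tested transporters (6 exporters and 10 importers), 0 were called in transduced cells with M354 and 0 with M176 by limma, and 0 had an unadjusted p below 0.05 in either comparison. Over all genes 1.33% and 0.516% were called, and 11.4% and 5.91% had such an unadjusted p. Their median differences were 0.015 and -0.099. In M354 Tregs 0 were called by limma and 1 had an unadjusted p below 0.05, where 1.81% of all genes were called and 11.1% had such an unadjusted p.

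In M176 Tregs 2 importer genes fell, where 24.7% of all genes were called. Slc39a2 fell by 0.461 (limma adjusted p = 0.0125) and Slc39a13 fell by 0.372 (adjusted p = 0.0438). This count became 0 without replicate 1 of M176 Tregs or without replicate 1 of WT Tregs. It was 1 without replicate 2 of WT Tregs and without either array of M354-transduced cells.

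Between WT Tregs and WT-transduced cells 6 transporters were lower in Tregs and 1 was higher, where 30.2% of all genes were called. With quantile normalisation the split was 5 lower and 4 higher, and without replicate 1 of WT-transduced cells 4 were called. The importer gene Slc39a6 read 185.3 and 154.1 in WT Tregs and 472.6 and 449.1 in WT-transduced cells, a difference of -1.45 (SE 0.14, limma adjusted p = 6.3e-07). The exporter gene Slc30a4 read 96.95 and 132.9 against 416.1 and 338, a difference of -1.72 (SE 0.19, adjusted p = 2.22e-06). Both were higher in WT-transduced cells than in WT Tregs, as were Mt1 and Mt2. Over the 4 mutant transduced arrays Slc39a6 read 408.9 to 489.2 and Slc30a4 read 287.6 to 463.6, ranges that take in both WT values of each gene.

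Other routes known to raise metallothionein RNA were read through lists of their genes. Over all 7 lists apart from the transporters, 72 distinct genes were tested. With M354 in transduced cells 1 rose and 6 fell, and with M176 0 rose and 3 fell, beside 1.33% and 0.516% of all genes called in either direction. The count with M354 was 3 without replicate 1 of M354-transduced cells and 4 without replicate 2 of WT-transduced cells. Without the 3 arrays of higher small nucleolar RNA level it was 2 with M354 and 2 with M176, Ndrg1 and Vegfa in each. The median difference of the 72 genes was -0.005 and -0.052.

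Of 15 STAT3 response genes, 4 fell with M354 in transduced cells and 1 with M176. Over all genes 1.33% and 0.516% were called in these comparisons, in either direction. Vegfa read 536.3 and 514.1 with WT, 175.7 and 189.3 with M354, and 196.8 and 173.1 with M176. Its differences were -1.53 (limma adjusted p = 7.82e-05) and -1.51 (adjusted p = 9.19e-05). Whether STAT3 had a part in the fall of Vegfa was not tested. The others with M354 were Bcl3 (-0.752), Fos (-0.743) and Junb (-0.74), and each call was lost when a single array of the comparison was left out. Of 11 glucocorticoid response genes, Errfi1, a feedback inhibitor of growth factor receptors, fell by 0.737 with M354 (limma adjusted p = 0.0135) and fell by 0.818 with M176 (adjusted p = 0.00857), and these calls too were lost without single arrays. Tsc22d3, the classic glucocorticoid target, was not called in either.

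For oxidative stress, copper and iron the counts in transduced cells were 0. By limma 0 of 14 genes of the oxidative stress list, 0 of 6 copper genes and 0 of 14 iron genes were called with either mutant. Over all genes 1.33% and 0.516% were called with M354 and M176, so a count of 0 in lists this short says little. At an unadjusted p below 0.05 there were 2 and 3 oxidative stress genes with M354 and M176, 1 and 2 copper genes, and 2 iron genes with each. The same counts were 4 and 4 for the glucocorticoid list and 5 and 4 for the STAT3 list, beside 11.4% and 5.91% of all genes. Of 11 heat shock genes, Hspe1, a mitochondrial chaperonin, rose by 0.816 with M354 (limma adjusted p = 0.0208), lost without replicate 1 of M354-transduced cells or replicate 2 of WT-transduced cells, and 0 were called with M176, where 1 had an unadjusted p below 0.05.

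The regulators behind these routes were also measured. Nfe2l2, which encodes NRF2, differed by 0.146 (limma adjusted p = 0.837) and -0.034 (adjusted p = 1) in transduced cells with M354 and M176. Nr3c1, the glucocorticoid receptor gene, differed by -0.17 (adjusted p = 0.721) and -0.268 (adjusted p = 0.842) by limma. Stat3 differed by -0.278 (limma adjusted p = 0.49) and -0.223 (adjusted p = 0.977). None of the 3 was called with either mutant in transduced cells. Nfe2l2 was lower in WT Tregs than in WT-transduced cells (-0.73, limma adjusted p = 0.00157), the direction of Mt1 and Mt2. It rose by 0.442 in M176 Tregs (limma adjusted p = 0.0414), a call lost when single arrays were left out. Stat3 differed there by -0.391 (limma adjusted p = 0.0523), which passed the threshold with quantile (adjusted p = 0.0321) and cyclic loess normalisation (adjusted p = 0.0382).

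In M176 Tregs 19 of the 72 genes rose and 7 fell, where 24.7% of all genes were called, and the count of 26 became 14 without replicate 1 and 17 without replicate 2 of M176 Tregs and 15 without replicate 2 of WT Tregs. The median difference of the 72 genes was 0.013, against -0.043 over all tested genes. Of the 11 heat shock genes 5 rose, led by Hspa1a, an inducible HSP70 gene, at 1059 ± 107 (SD, n = 2) against 146.6 ± 8.37 in WT Tregs (2.85, limma adjusted p = 5.44e-10). Of the 14 iron genes 3 rose and 1 fell. Ftl1, the ferritin light chain gene, rose by 0.89 (limma adjusted p = 2.05e-04) and Tfrc, the transferrin receptor gene, fell by 0.57 (adjusted p = 0.0165), a call lost without replicate 1 of M176 Tregs (-0.485) or replicate 2 of WT Tregs (-0.304). Of the 6 copper genes, Cox17, a mitochondrial copper chaperone gene, rose by 0.782 (limma adjusted p = 8.08e-04) and Slc31a1, the copper importer gene, by 0.43 (adjusted p = 0.0436), the latter lost without any 1 of the 4 arrays compared. Of the 14 oxidative stress genes 5 rose, among them Prdx1 and Taldo1. Of the 15 STAT3 genes 3 rose and 4 fell, and of the 11 glucocorticoid genes 1 rose and 2 fell. The small nucleolar RNA genes were high on the same arrays, and their part in these counts was not tested.

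In M354 Tregs 0 of the 72 rose and 6 fell, 3 of the glucocorticoid list and 3 of the STAT3 list, beside 1.81% of all genes called. Tsc22d3 fell from 365.3 ± 10 (SD, n = 2) in WT Tregs to 172.5 ± 5.62 (-1.08, limma adjusted p = 8.54e-05). That count became 2 without replicate 1 of M354 Tregs. The median difference of the 72 genes was -0.11, against -0.045 over all tested genes. Mt1 differed from WT by 0.096 (SE 0.126) in M354 Tregs, and a link between these genes and Mt1 was not tested.

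Between WT Tregs and WT-transduced cells, where Mt1 and Mt2 were 4.46-fold and 16.6-fold apart, 9 of the 72 genes were higher in Tregs and 21 lower, beside 30.2% of all genes called. With quantile normalisation the split was 11 higher and 18 lower. Among those lower in Tregs were Ccs, the copper chaperone for superoxide dismutase (-1.06, limma adjusted p = 2.39e-05), the copper importer gene Slc31a1 (-0.871, adjusted p = 2.86e-04) and Tfrc (-1.65, adjusted p = 6.89e-07). Dusp1, a phosphatase gene of the glucocorticoid list, was higher in Tregs (1.81, limma adjusted p = 4.32e-08).

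The genes with the pattern most like each member over the 12 arrays were found by Pearson's r. For Mt1 they were Tpi1 (0.99), Mpzl2 (0.989), Pfkp (0.987), Acot11 (0.985) and Lgals3 (0.984), and for Mt2 they were Mt1 (0.983), Bnip3 (0.981), Bmpr1a (0.981), Polk (0.98) and Pfkp (0.975). Tpi1 and Pfkp encode glycolytic enzymes and Bmpr1a a receptor for bone morphogenetic proteins. High values were common, since 452 tested genes had an r above 0.9 with Mt1 (5.27%) and 307 with Mt2 (3.58%). These genes were chosen for this likeness, so that their group means follow those of Mt1 is no finding. Tpi1, for example, had a mean of 2842 with WT, 1750 with M354 and 1762 with M176.

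Mtf1 had other neighbours in likeness, led by Patj (0.97), Nin (0.967), Zmynd8 (0.962), Nsd3 (0.96) and Ddb2 (0.959). An r above 0.9 with Mtf1 was reached by 141 genes (1.64%). None of its 5 was among the 5 of Mt1 or Mt2.

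**Figure D4:**
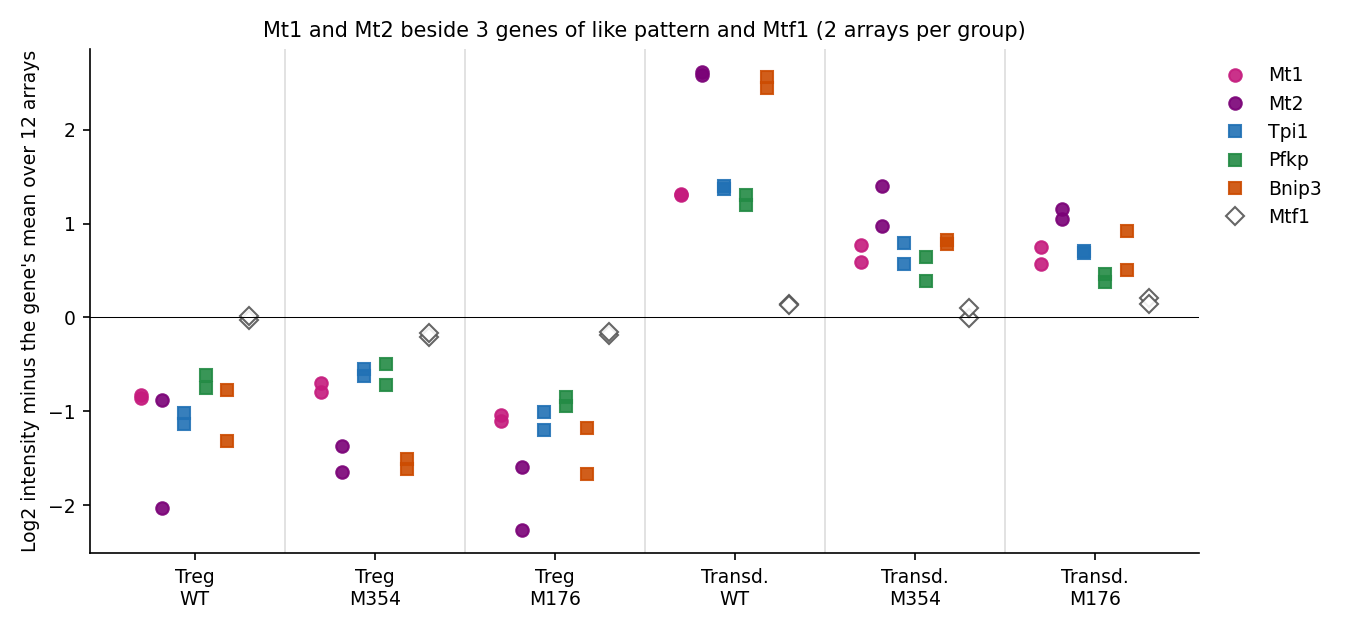
Log2 intensity minus each gene's mean over the 12 arrays, for Mt1, Mt2, Mtf1 and 3 genes of like pattern (Tpi1, Pfkp and Bnip3), with each array a point in its group. Mt1, Mt2 and the 3 others are lowest in the Treg groups and highest in WT-transduced cells, with the mutants between, while Mtf1 stays close to 0 in all 6 groups.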

How the data were processed

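RNA was amplified and hybridised to Affymetrix Mouse Gene ST arrays, 12 in all. The authors deposited 1 intensity per probe set, made with RMA in Affymetrix Power Tools per the submitters' processing notes. RMA usually gives log2 values, and the linear scale was inferred here from the size of the deposited values, which exceed any log2 intensity. No source used here gives the tool versions, genome build or probe set library. RMA corrects background and makes arrays alike by quantiles, which can hide a shift shared by all genes. Of 20716 probe sets, 17703 named 1 gene, 1246 several and 1767 none. The brightest probe set stood for a gene. Log2 of the deposited intensity entered a linear model in limma (version 3.58.1, R 4.3.3) that had 1 mean per group and no block, over genes above their array's median on at least 2 arrays. Calls used a Benjamini-Hochberg adjusted p below 0.05 within a comparison. The main fit left 6 residual degrees of freedom, so groups of 2 share 1 estimate of the spread. Fits with a replicate block or without some arrays left fewer. Named genes were the metallothioneins and Mtf1, fixed regulators, up to 4 called, non-overlapping genes per list and comparison with the widest change, and the 5 genes of highest Pearson's r. Members and lists were chosen with earlier results of these data known. The fit was tested on simulated data. Alternatives covered normalisation, filter, replicate block, pseudocount, probe set choice and leaving out each array. One more, leaving out the transduced arrays of high small nucleolar RNA level, was chosen after seeing the data. Start regions came from RefSeq GRCm38.p6.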

Additional observations from a re-analysis of the deposited data

Results flagged for a closer look

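Mt1 was flagged because its M354 arrays were all above WT in Tregs and all below WT in transduced cells. The Treg difference was 0.096, less than its SE of 0.126. Of all tested genes, 13.1% were higher without overlap in M354 Tregs and 17.1% were lower without overlap in M354-transduced cells. The share with both was not counted. The M354 effect in Tregs minus that in transduced cells was 0.731, and this difference was not tested.

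Several genes of the lists had allele effects that differed between Tregs and transduced cells by limma's test of that difference, given here as the log2 effect in Tregs minus that in transduced cells. For M354 these were Ndrg1 at 1.8 (limma adjusted p = 5.74e-05), Vegfa at 1.771 (adjusted p = 0.000952) and Tsc22d3 at -1.085 (adjusted p = 0.00366). For M176 the other MTF1 target Ndrg1 was at 1.837 (adjusted p = 2.56e-05) and Vegfa at 1.519 (adjusted p = 0.00183) by limma. Of the 72 list genes 2 were called higher and 1 lower for M354, beside 1.08% of all genes called. For M176 12 were called higher and 0 lower, beside 5.49% of all genes.

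For M176 the heat shock genes were Hspa1a at 2.701 (limma adjusted p = 3.41e-07), Hspe1 at 1.122 (adjusted p = 0.0124), Dnajb1 at 0.836 (adjusted p = 0.011) and Hsp90aa1 at 0.721 (adjusted p = 0.0448). The metal genes were Cox17 at 0.88 (limma adjusted p = 0.016), Ftl1 at 0.851 (adjusted p = 0.0146) and Hmox2 at 0.778 (adjusted p = 0.0271). Fos was at 1.97 (limma adjusted p = 2.44e-05), and the pentose phosphate pathway enzymes Pgd and Tkt were at 0.723 (adjusted p = 0.0219) and 0.67 (adjusted p = 0.0359). Over all genes 5.49% were called for a different M176 effect. The small nucleolar RNA genes were high on the M176 Treg arrays, and their part in these differences was not tested.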

How the results depend on the processing

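Over 20 settings Mt1 and Mt2 stayed below WT in transduced cells: with M354 Mt1 lay between -0.729 and -0.547 and Mt2 between -1.625 and -1.193, and with M176 between -0.749 and -0.565 and between -1.545 and -1.421. Of 831 values that answer a comparison 62 moved by more than the replicate spread (counts by more than 1.5 times), among them sign changes of Mt2 in Tregs and of Mtf1, given here. Of 2684 values for other named genes 186 lost and 13 gained the threshold, and no called value changed sign. The causes were not tested. Normalisation moved Mt1 between M354 and M176 Tregs (0.475, cyclic loess), Mt1 between the WT groups (-2.015, cyclic loess), Mtf1 between M354 and M176 Tregs (0.116 quantile, 0.138 loess), the M354 effect on Mtf1 between systems (0.031, loess) and Mtf1 between the WT groups (0.028 quantile, 0.017 loess). A pseudocount of 32 gave -1.95 for Mt1 and -3.777 for Mt2 between the WT groups. Quantile normalisation gave 243 genes called in M354 Tregs. It moved the median difference between the WT groups from -0.076 to 0.039, and the calls there from 968 higher and 1728 lower to 1435 and 1278. Keeping genes above percentile 75 gave 76 and 26 genes called in transduced cells with M354 and M176, and 1339 between the WT groups. Transporter calls in M176 Tregs were 1 without a filter, 1 above percentile 75 and 1 with the replicate block. Leaving out the array of higher small nucleolar RNA level in each transduced group, a choice made after seeing the data that leaves 1 array a group assumed to vary like the others, gave -0.159 for Mt1 between the mutants, 21 and 15 genes called in transduced cells with M354 and M176, 1 transporter call in M176 Tregs and 2 pathway list calls with M354.

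Leaving out single arrays gave, for genes called, 70 to 211 in M354 Tregs, 909 to 2383 in M176 Tregs, 40 to 130 and 22 to 50 in transduced cells with M354 and M176, and 1497 to 2759 between the WT groups. The arrays whose absence lowered these counts most were replicate 1 of M354 Tregs (70), of M176 Tregs (909) and of M354-transduced cells (40), replicate 2 of M176-transduced cells (22) and replicate 1 of WT Tregs (1497, between the WT groups). Mt2 ranged from -0.631 to 0.521 in M354 Tregs, from -1.054 to 0.098 in M176 Tregs, from 0.088 to 0.759 between those mutants and from -4.631 to -3.479 between the WT groups. Its M354 and M176 effects between systems ranged from 0.778 to 1.93 and from 0.437 to 1.59. Transporter calls ranged from 0 to 2 in M176 Tregs and from 4 to 7 between the WT groups. Pathway list calls ranged from 2 to 6 in M354 Tregs, from 14 to 27 in M176 Tregs and from 3 to 7 with M354 in transduced cells.

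The replicate numbers did not pair the arrays consistently: of 15 pairs of groups, 3 had deviations correlated above 0.1. The correlations ranged from -0.551 (WT- and M354-transduced cells) to 0.25 (WT Tregs and M176-transduced cells). Next lowest were -0.43 (WT Tregs and WT-transduced cells) and -0.33 (M354- and M176-transduced cells). Such negative values can mark structure that crosses the replicate numbers, which the replicate block does not take up. The replicate block gave 99 genes called in transduced cells with M354 and 45 with M176, 134 in M354 Tregs and 2012 in M176 Tregs. With 2 arrays a group, the Treg values of Mt2, near the array medians, are the least certain here.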
